A study of Arabidopsis thaliana with 82 samples.

Results

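The xyloglucan endotransglucosylase/hydrolase (XTH) family of Arabidopsis thaliana was followed across cut and grafted hypocotyls, the seedling stems below the cotyledons. Its members were taken by gene identifier as the complete family, XTH1 to XTH33, so no measured value decided which genes were included. All 33 were among the 27416 genes listed, and 29 of them were among the 20766 genes with enough signal to be tested. XTH1, XTH2, XTH3 and XTH29 were not tested: XTH1 and XTH2 were listed at 0 in all 82 libraries, XTH3 was above 0 in 1 library only, and XTH29 reached at most 0.728 on the scale used below.

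Poly-adenylated RNA was sequenced from hypocotyls of 7-day-old Col-0 seedlings. Every plant, the uncut ones included, had 1 cotyledon removed, and seedlings raised on sucrose-free agar, with 8 h of light a day at 20 °C, were moved to moist membranes. Intact plants were left uncut. In separated plants the hypocotyl was cut across and the upper and lower parts were left apart. In grafted plants the cut upper part of one plant was joined to the cut lower part of another. Hypocotyl tissue above the cut or junction (the top) and below it (the bottom) was collected separately at 6, 12, 24, 48, 72, 120, 168 and 240 h, and intact hypocotyls at these times and at 0 h. This gave 41 groups of 2 libraries that the labels call independent biological replicates. A separated top has lost its roots and a separated bottom has lost its shoot, so a difference between them covers both the cut and what each part was cut off from. Intact hypocotyls were not divided into tops and bottoms. A difference along the stem that was there before the cut can therefore not be told apart in a top minus bottom difference, or in a part set against intact plants. A short piece of stem holds many cell types, so fewer cells of a type and less RNA per cell cannot be told apart in any value given here.

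XTH enzymes act in the primary cell wall, where xyloglucan chains coat and tether cellulose. Most of them cut a xyloglucan chain and rejoin the new end to another chain, and a few mainly hydrolyse it, so the wall can be loosened, extended or rebuilt without dissolving. The genes are controlled one by one, by auxin, brassinosteroid, touch, darkness or wounding, and in incised Arabidopsis stems XTH19 and XTH20 have been linked, through the transcription factor ANAC071, to division of the pith cells that refill the cut. By sequence, 11 members belong to group I, 15 to group II, 2 to group IIIA and 5 to group IIIB. Group IIIA holds XTH31 and XTH32, and XTH31 has hydrolase activity in vitro.

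The feature that defines the family is a short stretch of the enzyme around a pair of catalytic glutamates. The 27 coding bases of that stretch, read from the RefSeq TAIR10.1 coding sequences, were found in 32 of the 33 members, with XTH11 lacking a match to the pattern used. No stretch was identical in 2 members. The stretch is shown for the 9 members whose levels are described most closely below, 5′ to 3′, with the codons of both glutamates in capitals:

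XTH9: aacGAAttcgattttGAGttcttaggg
XTH17: gatGAGatcgatttcGAGttcttggga
XTH18: gatGAGattgatttcGAGttcttagga
XTH19: gatGAGattgatttcGAGtttttgggg
XTH20: gatGAAatagattttGAGttcttggga
XTH24: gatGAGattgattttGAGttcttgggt
XTH27: gatGAGatagattttGAGtttcttggt
XTH31: gatGAGgtcgatatcGAGtttctaggg
XTH32: gatGAGgtagacataGAAtttttgggg

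The codon GAG encoded the first glutamate in 26 of the 32 members and the second in 28, and the others used GAA. XTH17 to XTH20 form a close clade. XTH17 and XTH18 shared 92.2% of their coding bases, XTH18 and XTH19 89.2%, and XTH19 and XTH20 84.9%. XTH12 and XTH13 shared 89.7%, and XTH22 and XTH23 82.4%. Exact sequence shared within the family was limited. Of the 50-base words, 1.6% of those of the XTH18 and XTH19 transcripts and 0.2% of those of XTH17 occurred in another XTH gene. For the other members none did. Genes outside the family and inexact matches were not searched. Several members are neighbours. XTH24, XTH18 and XTH19 lie in a row on chromosome 4, XTH13, XTH25 and XTH22 at chr5:23302787-23308680, and XTH23 and XTH14 at chr4:13128394-13131860.

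The upstream sequences of XTH20 and XTH19 are shown because the data below turn on both genes, which are close relatives. They are the 250 bases before the RefSeq TAIR10.1 gene start, in the direction of transcription. XTH20 (AT5G48070) starts on the plus strand, and its upstream stretch is chr5:19481647-19481896. XTH19 (AT4G30290) starts on the minus strand, and its stretch is chr4:14830225-14830474. Capitals mark a match to a searched motif.

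XTH20: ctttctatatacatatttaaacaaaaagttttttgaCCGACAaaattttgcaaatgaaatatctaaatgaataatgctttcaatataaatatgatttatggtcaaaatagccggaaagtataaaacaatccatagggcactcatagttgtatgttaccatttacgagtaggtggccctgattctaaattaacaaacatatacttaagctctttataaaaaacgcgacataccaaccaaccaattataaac
XTH19: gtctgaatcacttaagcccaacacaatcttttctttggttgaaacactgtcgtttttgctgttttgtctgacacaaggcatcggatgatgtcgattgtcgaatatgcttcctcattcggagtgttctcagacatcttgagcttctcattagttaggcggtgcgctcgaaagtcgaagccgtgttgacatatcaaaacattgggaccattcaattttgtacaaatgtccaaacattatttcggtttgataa

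The motifs searched in 32 members, on both strands, were the auxin response elements TGTCTC and TGTCGG and the G-box CACGTG. The second, TGTCGG, occurred in 1 member, XTH20, where it reads CCGACA on the strand shown, against 4.2% of the 27443 promoters of this length. TGTCTC occurred in 2 members, XTH3 and XTH6, against 10.9% of promoters, and CACGTG in 0 members, against 6.5%.

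Levels are given as x, the submitters' library-normalised value divided by 1 constant so that a library sums to 1 M at the median. The 27416 values of a library summed to 10.05 to 19.7 M before this division. In the 69 libraries whose depth could be estimated from the spacing of the values, the estimate was 7.55 to 22.2 M reads with a median of 13.0 M, so that an x of 1 stands for 5.78 to 24.5 reads and 3 reads stand for an x of 0.122 to 0.519. Replicate libraries correlated at 0.981 to 0.995 across genes, and no pair held identical values. Differences are of log2(x + 1), with the standard error (SE) and the adjusted p of limma fitted to all 41 groups and adjusted over the 20766 genes tested, and a gene is called at an adjusted p under 0.05. These p-values measure the spread between these samples. Times were pooled into 6 to 24 h, 48 to 72 h and 120 to 240 h, which gives 6, 4 and 6 libraries a side. Adding 1 before taking logarithms understates the change of low members.

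**Figure D1:**
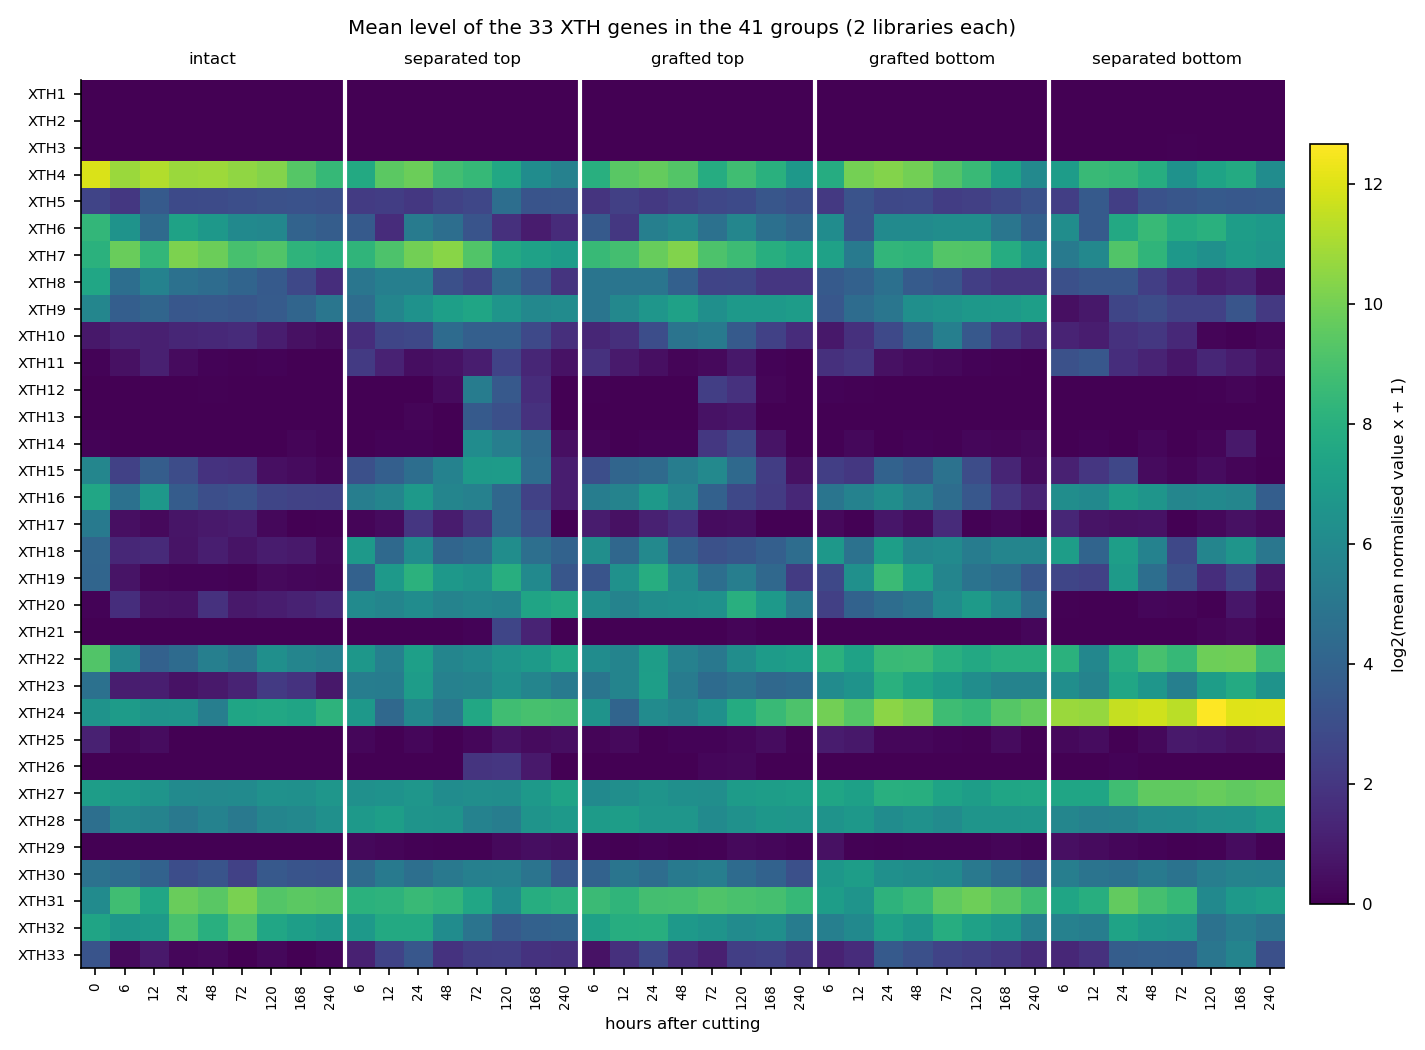
Mean level of each of the 33 XTH genes in the 41 groups, as the colour of log2(mean x + 1) on the scale beside it. Rows are genes, and columns are groups ordered as intact plants, separated tops, grafted tops, grafted bottoms and separated bottoms, each by time. The brightest cells are XTH24 in separated bottoms and XTH4 in intact plants, and XTH1 and XTH2 are darkest throughout.

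Which member dominated the family differed between conditions. On the length-normalised scale, the only one on which genes can be set side by side, XTH4, long known as EXGT-A1, led in intact hypocotyls with 1783 ± 325 (SD, n = 6) at 6 to 24 h, 47.8% of the family's sum. In separated bottoms XTH24, also called MERI5B, led with 2460 ± 862 at 6 to 24 h, 3464 ± 1252 (n = 4) at 48 to 72 h and 5811 ± 1583 at 120 to 240 h, and at the last of these it made up 70.4% of the sum. XTH24 also stood first in grafted bottoms, with 33.2%, 22.2% and 25.1% of the sum in the 3 windows. Its levels there were 1177 ± 416, 893 ± 467 and 702 ± 241. The next member was XTH4 with 790 ± 469 at first and XTH31 with 657 ± 240 in the end, so the spreads over libraries and times overlapped. In tops the leading member was XTH7 at 48 to 72 h, with 36.4% in separated and 33% in grafted tops, and XTH24 from 120 h, with 29.3% and 20.6%. In late grafted tops XTH24 and XTH31 stood at 447 ± 180 and 431 ± 120, and in late intact plants XTH4 and XTH31 at 711 ± 402 and 640 ± 187, with overlapping spreads. Each SD covers the times of its window as well as the replicates. In intact plants, for example, the x of XTH4 was 1172 and 1393 at 120 h and 338 and 371 at 240 h. The order of members within the same libraries was not tested. At 6 to 24 h the spreads of the leading levels in tops also overlapped. XTH7 and XTH4 stood at 608 ± 308 and 565 ± 307 in separated tops and at 543 ± 221 and 545 ± 244 in grafted tops.

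The summed level of the family was highest in separated bottoms in the late window, where XTH24 alone made up 70.4% of it. The library-normalised values of all genes also summed to more there. Before division they came to 16.10 to 18.65 M in late separated bottoms and 10.36 to 11.36 M in late separated tops. Its length-normalised sum there was 8251 ± 1569 (SD, n = 6) at 120 to 240 h, with libraries from 6729 to 10816. Separated tops had 1885 ± 232, grafted bottoms 2797 ± 425, grafted tops 2167 ± 296 and intact plants 2389 ± 552, and no library of any of these groups reached the lowest separated bottom. Earlier the groups overlapped: at 6 to 24 h the sum was 4368 ± 1993 in separated bottoms and 3728 ± 673 in intact plants, and at 48 to 72 h it was 6021 ± 1702 (n = 4) in separated bottoms, with a lowest library of 3496, and 4030 ± 397 in grafted bottoms. By the group in which the mean level was highest, 10 of the 29 tested members peaked in separated tops, 7 in separated bottoms, 7 in intact plants, 4 in grafted bottoms and 1, XTH20, in grafted tops. The same shares over all tested genes were not counted, so these numbers describe the members only. XTH13, XTH21 and XTH26, among the 10, reached an x of 1 in separated tops only, so the filter fixed their place.

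The first question the design puts is how tissue above and below a cut differs when nothing is joined. The family split between both sides. In separated tops 10 of 29 members were higher than in separated bottoms at 6 to 24 h and 6 were lower, while 40.4% of all tested genes were higher and 31.6% lower. At 48 to 72 h 13 were higher and 9 lower, against 47.2% and 29.4% of all genes. At 120 to 240 h 15 were higher and 12 lower, against 49.4% and 30.2%. The median log2 difference of the members was 0.00, 0.18 and 0.55, and that of all tested genes 0.08, 0.26 and 0.25. Since most tested genes differed between these tissues, what can be described is which members lay on which side. With libraries scaled to their totals the split was 15 higher and 5 lower at 48 to 72 h and 17 higher and 7 lower at 120 to 240 h. Of the 20766 genes, 14065 were then higher and 3520 lower at 48 to 72 h, and 14629 and 3580 at 120 to 240 h. The calls over all genes thus moved towards tops as well.

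XTH20 had the largest difference in favour of separated tops at 6 to 24 h and 120 to 240 h, and XTH15 at 48 to 72 h. In separated tops the x of XTH20 was 51.7, 60.0 and 85.3 as the lowest, median and highest of 6 libraries at 6 to 24 h. In separated bottoms it was 0, 0 and 0.0809, and in intact plants 0, 0.607 and 4.37. Every top library stood above every bottom and intact library, and the bottoms were at the limit of detection. The log2 difference between separated tops and bottoms was 5.97 ± 0.23 at 6 to 24 h (adjusted p = 5.6e-27), 5.58 ± 0.28 at 48 to 72 h (5.2e-23) and 6.64 ± 0.23 at 120 to 240 h (1.3e-29). The size of the first value depends on the added constant, being 9.14 with 0.1 and 3.75 with 5, since most bottoms were listed at 0.

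XTH9 (AT4G03210), which is expressed in shoot apices and growing internodes, followed the same division, and so did XTH15 (AT4G14130), also named XTR7. For XTH9 the lowest, median and highest x at 6 to 24 h were 21.3, 52.4 and 96.6 in separated tops and 0.0809, 0.931 and 5.58 in separated bottoms, which do not overlap. Its log2 difference was 4.25 ± 0.21 (adjusted p = 7.5e-23), then 4.61 ± 0.26 and 3.64 ± 0.21 in the later windows. The summed x of 5 shoot meristem markers was also higher in separated tops at 6 h, with 41.8 to 51.3 against 14.8 to 15.4 in separated bottoms. In grafted bottoms that sum was 20.5 to 29.9 at 6 h and 46.7 to 53.2 at 240 h. The part of such tissue in the level of XTH9 was not tested. XTH15 was at 9.39, 5.66, 15.6, 10.9, 29 and 17.2 in separated tops at 6, 12 and 24 h and at 0.890, 1.62, 1.62, 4.37, 6.39 and 4.61 in separated bottoms, a difference of 1.89 ± 0.22 (adjusted p = 8.6e-11). It was further apart at 48 and 72 h, with 48.6, 48.0, 133 and 105 in separated tops against 0.324, 0.243, 0.0809 and 0.162 in separated bottoms. The difference there was 6.00 ± 0.26 (adjusted p = 3.9e-25). The XTH15 difference of 3.92 ± 0.22 at 120 to 240 h came largely from 120 h and was 2.61 without that time.

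XTH24, XTH27 (AT2G01850, EXGT-A3, which affects leaf veins and tracheary elements), XTH6 (AT5G65730) and XTH22 (AT5G57560, the touch-induced TCH4) lay on the other side. XTH24 (AT4G30270) had x values of 1458, 1758 and 3309 (lowest, median, highest) in separated bottoms at 6 to 24 h, 15.7, 57.3 and 112 in separated tops and 41.1, 113 and 145 in intact plants. The lowest bottom library was thus above the highest library of the other groups. The log2 difference top minus bottom was -5.35 ± 0.24 (adjusted p = 3.6e-24), -5.17 ± 0.30 and -3.45 ± 0.24 in the 3 windows, and the last was -1.93 under quantile normalisation.

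XTH27 differed between the sides more from 48 h on. In separated bottoms its x was 161, 177 and 479 at 6 to 24 h and 715, 784 and 944 at 120 to 240 h. In separated tops it was 75.0, 89.0 and 101 and then 63.4, 109 and 163, and intact plants stayed between 53.9 and 142 in all 3 windows. The bottoms did not overlap the tops in either window. The log2 difference went from -1.41 ± 0.10 (adjusted p = 1.3e-17) through -3.35 ± 0.12 (2.1e-28) to -2.90 ± 0.10 (5.7e-30).

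XTH6 was low in tops and high in bottoms left apart. Its x in separated tops was 2.02, 11.2 and 41.3 at 6 to 24 h and 0.971, 1.05 and 3.80 at 120 to 240 h, and in separated bottoms 9.06, 73.6 and 227 and then 96.8, 140 and 314. The groups overlapped in the early window and were far apart in the late one. The log2 difference was -2.31 ± 0.22 (adjusted p = 3.0e-13), -4.17 ± 0.27 (4.3e-19) and -5.90 ± 0.22 (1.9e-28). XTH22 was lower in separated tops by -2.68 ± 0.33 at 48 to 72 h and -2.48 ± 0.27 at 120 to 240 h, from x values of 376, 811 and 1174 in late bottoms against 92.2, 118 and 208 in late tops. Its difference of -0.76 ± 0.27 at 6 to 24 h was called (adjusted p = 0.012), but was -0.45 without 6 h (0.23), -0.51 without replicate 1 of the separated bottoms at 12 h (0.11) and -0.36 with libraries scaled to their totals (0.23).

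**Figure D2:**
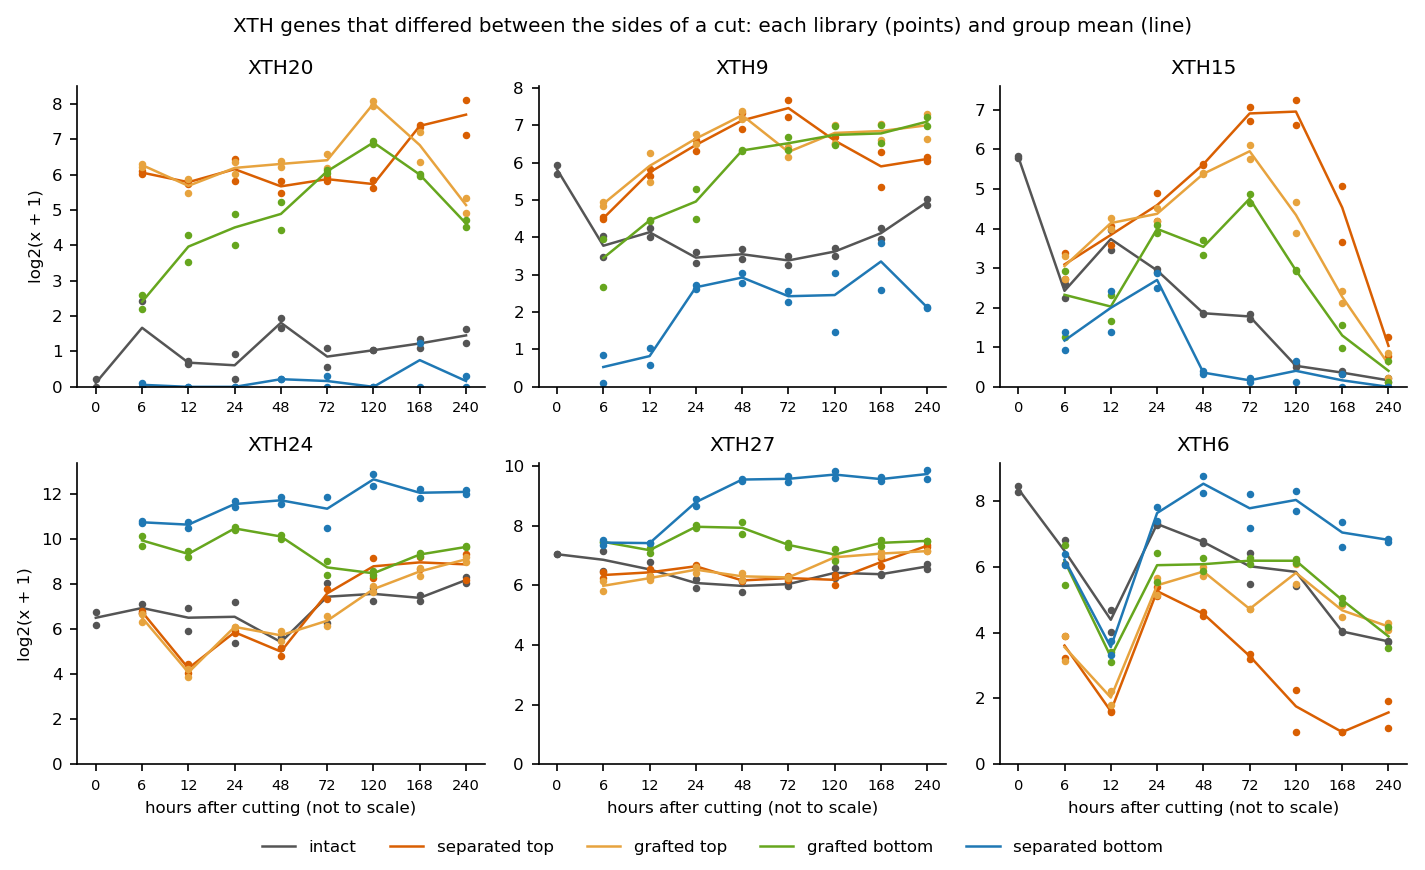
Level of XTH20, XTH9, XTH15, XTH24, XTH27 and XTH6 over time in the 5 conditions. Points are libraries as log2(x + 1), lines join the log2 of the group mean plus 1, and the time axis is not to scale. XTH20 and XTH9 run high in both kinds of top and low in separated bottoms, with grafted bottoms between them or level with the tops. XTH15 does so at 48 and 72 h. XTH24 and XTH27 are highest in separated bottoms, and so is XTH6 from 48 h.

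Joining the cut parts brought the top and bottom closer for most of these members. In grafts, 8 of 29 members were higher and 8 lower in tops than in bottoms at 6 to 24 h (37.8% and 27% of all tested genes), 6 and 10 at 48 to 72 h (27.6% and 19.5%), and 6 and 7 at 120 to 240 h (12.4% and 11.2%, or 7 and 4 members with libraries scaled to their totals). With library totals 5725 of the 20766 genes were higher and 1650 lower at 120 to 240 h. The medians over the members were -0.02, -0.05 and 0.06 and those over all genes 0.07, 0.10 and 0.05. The count of members at 120 to 240 h was 4 in all without 120 h, while the count over all genes fell from 4904 to 2397.

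The test of the difference between the graft's and the separated plants' top minus bottom contrast called 4 members higher and 7 lower at 6 to 24 h (10.4% and 11.6% of all genes), 4 and 15 at 48 to 72 h (23.1% and 32.3%) and 7 and 13 at 120 to 240 h (28% and 41.6%). The medians over members were -0.09, -0.95 and -0.64, and over all genes 0.00, -0.12 and -0.18. The count at 6 to 24 h was 2 higher and 10 lower with libraries scaled to their totals and 2 and 7 under quantile normalisation. The count of 19 at 48 to 72 h was 9 without 72 h, while the count over all genes fell from 11505 to 5971. Of the 20766 genes, 921 were higher and 3828 lower at 6 to 24 h with library totals, and 1695 and 1946 under quantile normalisation. These contrasts use the same libraries as the pairwise ones beside them, so they are not separate evidence.

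XTH20 shows the course of that approach library by library. In grafted bottoms its x was 3.56 and 5.02 at 6 h, 10.6 and 18.7 at 12 h, 28.4 and 15.1 at 24 h, 20.8 and 36.3 at 48 h, 69.0 and 65.5 at 72 h and 123 and 116 at 120 h. At 168 h it was 61.8 and 64.0, and at 240 h 21.9 and 25.2. Separated bottoms stayed between 0 and 1.38 at all of these times, so already the 6 h grafted libraries stood above every separated one. Grafted minus separated bottom was 3.56 ± 0.23 (adjusted p = 1.1e-17), 5.28 ± 0.28 (3.7e-21) and 5.58 ± 0.23 (3.8e-26) in the 3 windows.

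The XTH20 contrast between grafted top and bottom was 2.46 ± 0.23 (adjusted p = 5.0e-13) at 6 to 24 h, 0.88 ± 0.28 at 48 to 72 h (0.0082) and 0.79 ± 0.23 at 120 to 240 h (0.0088). The last 2 values were not called without some libraries. Without 48 h the first of them was 0.30 (0.65), without replicate 1 of the grafted bottoms at 48 h it was 0.69 (0.072), and without 120 h the second was 0.64 (0.14). The change of the contrast with grafting was -3.51 ± 0.32, -4.69 ± 0.40 and -5.85 ± 0.32 (adjusted p = 4.8e-12, 7.5e-14 and 5.4e-21). Grafted and separated tops differed by 0.05 ± 0.23 at 6 to 24 h and 0.58 ± 0.28 at 48 to 72 h, neither of them called.

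XTH9 in grafts overlapped between both sides from 72 h. In grafted bottoms its x was 5.42, 20.9 and 38.6 at 6 to 24 h, 78.6, 79.9, 79.5 and 102 at 48 and 72 h and 87.4, 125 and 147 at 120 to 240 h. In grafted tops it was 142, 165, 70.2 and 84.0 at 48 and 72 h and 91.8, 113 and 156 in the late window. The tops were thus above the bottoms at 48 h, and overlapped them at 72 h and later. Grafted top minus bottom was 1.58 ± 0.21 (adjusted p = 7.8e-09), then 0.36 ± 0.26 (0.26) and -0.01 ± 0.21 (0.99). Grafted minus separated bottom was 2.90 ± 0.21, 3.75 ± 0.26 and 4.33 ± 0.21 (adjusted p = 6.8e-16, 3.1e-17 and 2.5e-23), and the change of the contrast with grafting was -2.68 ± 0.30, -4.25 ± 0.36 and -3.64 ± 0.30.

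For XTH15 the grafted bottoms had x values of 12.2, 8.98, 24.0 and 28.1 at 48 and 72 h, below the 40.2 to 68.6 of the grafted tops and above the 0.0809 to 0.324 of separated bottoms. Grafted minus separated bottom was 3.88 ± 0.26 there (adjusted p = 2.5e-17), and the change of the contrast was -4.48 ± 0.37 (5.8e-14). The late change of -3.09 ± 0.30 was -2.03 without 120 h. XTH10 (AT2G14620), a group I member, reached its highest levels in grafts: at 72 h x was 40.5 and 45.3 in grafted bottoms and 39.6 and 32.5 in grafted tops, against 0.809 and 2.67 in separated bottoms and 12.2 and 13.9 in separated tops. Grafted minus separated bottom was 3.07 ± 0.25 at 48 to 72 h (adjusted p = 6.1e-15), and the groups did not overlap.

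XTH19 differed from XTH20 in that separated bottoms also raised it for a time. At 24 h its x was 490 and 303 in grafted bottoms, 260 and 215 in grafted tops, 163 and 73.2 in separated bottoms and 309 and 255 in separated tops, while intact plants held at most 1.13 from 6 to 24 h. At 48 h grafted bottoms had 152 and 154, and separated bottoms 27.0 and 18.4. Every cut library was thus above the intact plants at 24 h, and the highest was a grafted bottom, although the other grafted bottom lay just under a separated top.

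Grafted minus separated bottom was 2.67 ± 0.43 for XTH19 at 48 to 72 h (adjusted p = 4.7e-07) and 2.56 ± 0.35 at 120 to 240 h (8.6e-09). The value of 2.07 ± 0.35 at 6 to 24 h rested on 12 h and was 0.95 without it (0.097). Separated top minus bottom was 2.50 ± 0.35, 2.79 ± 0.43 and 4.11 ± 0.35, the first of them 1.34 without 12 h. The change of the contrast with grafting was -3.99 ± 0.60 and -4.39 ± 0.49 in the later windows (adjusted p = 2.2e-07 and 6.6e-11), and the early value of -2.54 ± 0.49 was -1.42 without 12 h (0.12).

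XTH24, XTH27 and XTH6 moved the opposite way with joining. XTH24 in grafted bottoms had x values of 586, 983 and 1473 at 6 to 24 h and 336, 637 and 817 at 120 to 240 h, against 3683, 4751 and 7710 in late separated bottoms. Late grafted bottoms thus lay wholly under late separated bottoms, and wholly above intact plants with 150, 206 and 315. Grafted minus separated bottom was -1.07 ± 0.24 (adjusted p = 4.8e-04), -2.04 ± 0.30 (7.1e-08) and -3.11 ± 0.24 (7.7e-16), the last 2 being -0.89 and -1.85 under quantile normalisation.

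The XTH24 contrast between grafted top and bottom went from -4.36 ± 0.24 through -3.38 ± 0.30 to -0.67 ± 0.24. That last value had an adjusted p of 0.038, and without 120, 168 or 240 h it was -0.66 (0.15), -0.63 (0.16) or -0.73 (0.076). The change of the contrast with grafting was 2.77 ± 0.34 at 120 to 240 h (adjusted p = 1.0e-09), or 1.40 under quantile normalisation. Earlier changes were less firm. The 1.00 ± 0.34 at 6 to 24 h was 0.84 without 24 h (0.23), and the 1.80 ± 0.42 at 48 to 72 h was 1.27 without 48 h (0.069) and 0.64 under quantile normalisation (0.2).

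XTH27 and XTH6 also came down in joined bottoms. XTH27 at 120 to 240 h stood at 112, 169 and 181 in grafted bottoms, far under the lowest separated bottom of 715. Its grafted minus separated bottom difference was -1.92 ± 0.12 at 48 to 72 h (adjusted p = 1.1e-18; -1.23 under quantile normalisation) and -2.35 ± 0.10 at 120 to 240 h (6.2e-26). XTH6 at 48 and 72 h had 75.9, 57.5, 76.1 and 67.7 in grafted bottoms and 431, 304, 294 and 145 in separated bottoms, a difference of -1.97 ± 0.27 (adjusted p = 1.2e-08). The change of the top minus bottom contrast with grafting was 2.0 ± 0.17 and 2.64 ± 0.14 for XTH27 (adjusted p = 8.4e-14 and 8.0e-22) and 3.33 ± 0.38 and 5.77 ± 0.31 for XTH6 (2.3e-10 and 1.7e-21) in the last 2 windows. XTH22 differed less evenly: its grafted minus separated bottom difference was 0.76 ± 0.27 at 6 to 24 h (adjusted p = 0.026), -0.25 ± 0.33 at 48 to 72 h (0.54) and -1.66 ± 0.27 at 120 to 240 h (6.3e-07). The first of these was 0.33 without 12 h (0.54) and 0.51 without replicate 2 of the separated bottoms at 12 h (0.18).

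XTH33 (AT1G10550), the member with a membrane-bound protein, was a low gene that was higher in bottoms left apart. Its x there was 51.9 and 8.82 at 120 h, 49.6 and 53.3 at 168 h and 7.28 and 7.53 at 240 h, so the libraries fell into high and low ones. In the same window it was 1.29, 3.12 and 4.13 (lowest, median, highest) in grafted bottoms and 0, 0.0405 and 0.324 in intact plants, and the 3 groups did not overlap. Separated bottom minus intact was 3.57 ± 0.33 at 48 to 72 h and 4.28 ± 0.27 at 120 to 240 h (adjusted p = 5.2e-13 and 6.4e-19), and grafted minus separated bottom was -2.46 ± 0.27 in the late window (3.3e-11). XTH16 (AT3G23730) behaved alike in the late window, with 12.2, 38.8 and 96.6 in separated and 1.05, 2.99 and 11.0 in grafted bottoms, a difference of -2.88 ± 0.24 (adjusted p = 8.6e-15).

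**Figure D3:**
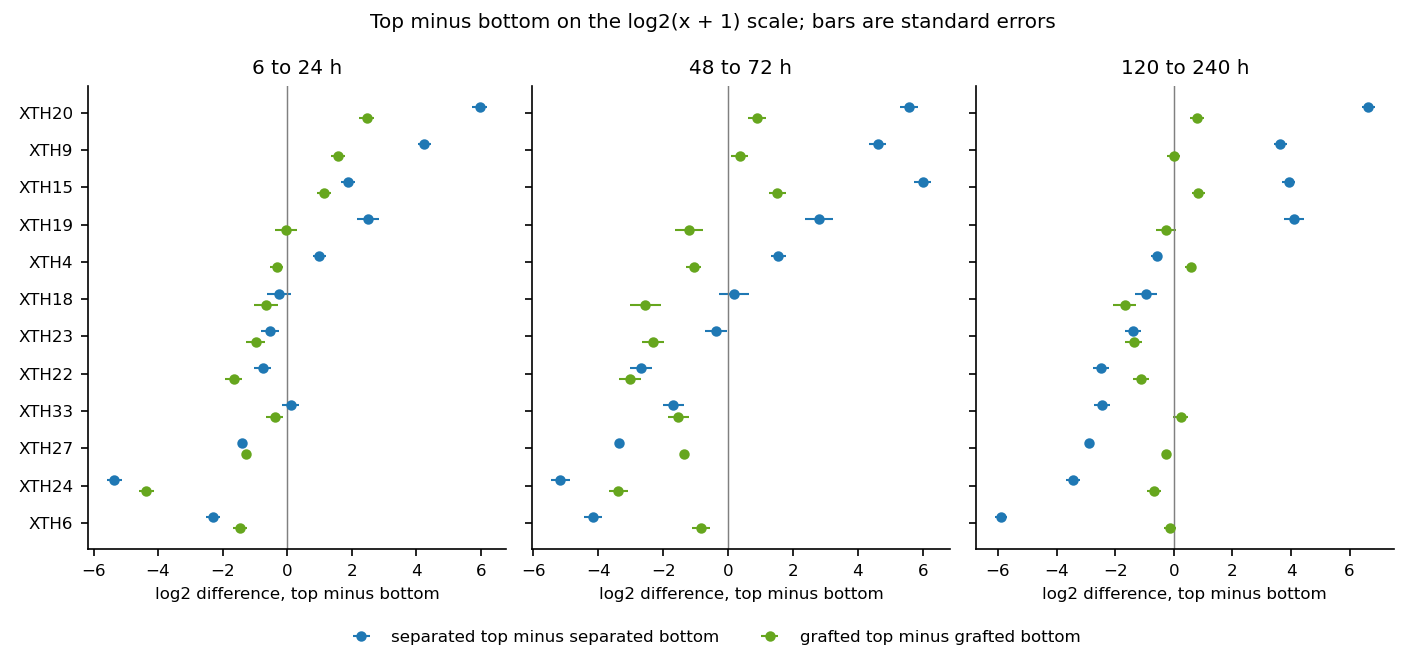
Top minus bottom difference of log2(x + 1) in separated and in grafted plants for 12 members in the 3 windows. Points are the fitted differences and bars are 1 SE. The grafted points lie nearer to 0 than the separated ones for XTH20, XTH9 and XTH15 on the top side and for XTH24, XTH27 and XTH6 on the bottom side, most clearly at 120 to 240 h.

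Over all members, grafted against separated bottoms called 10 higher and 6 lower at 6 to 24 h, when 17.5% and 17.1% of all tested genes were called. It called 11 and 8 at 48 to 72 h (30% and 30.5%, or 14 and 3 members with libraries scaled to their totals) and 9 and 11 at 120 to 240 h (35.6% and 34.6%). Under the submitters' scaling only the early share of higher members, 10 of 29, stood clearly over its background. With library totals it was also 10 of 29, but beside 5865 of the 20766 genes, a smaller excess. At 48 to 72 h library totals gave 11069 genes higher and 2548 lower. The medians over members were 0.07, 0.12 and -0.08, and over all genes 0.00, 0.00 and 0.01. XTH30 (AT1G32170) was among the early ones: its x in grafted bottoms was 64.7, 103 and 155, wholly above the 21.6, 29.1 and 44.3 of separated bottoms, a difference of 1.66 ± 0.18 (adjusted p = 2.5e-10). Between grafted top and bottom XTH30 differed by -2.18 ± 0.18 in that window (1.5e-14), and the contrast changed with grafting by -1.92 ± 0.26 (8.7e-08).

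No member was called between grafted and separated tops during the first day. Few genes of any kind were called there, so this does not show equal levels. The count was 0 higher and 0 lower of 29 at 6 to 24 h, while limma called 0.0337% of all tested genes higher and 0.313% lower. At an unadjusted p under 0.05 there were 2 members, and each of the alternative analyses also called 0. At 48 to 72 h 4 members were higher and 5 lower (8.29% and 14.3% of all genes). Without 72 h that count fell to 0, while the count over all 20766 genes fell from 4684 to 250. At 120 to 240 h 8 were higher and 14 lower (19.5% and 29.8%). The medians over members were -0.24 and -0.45 and over all genes -0.05 and -0.08.

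XTH6 had the largest late difference in favour of joined tops. Its x was 15.9, 24.6 and 67.2 in grafted tops at 120 to 240 h and 0.971, 1.05 and 3.80 in separated tops, with no overlap and a difference of 3.51 ± 0.22 (adjusted p = 1.9e-18). Intact plants then had 12.1, 15.4 and 71.3, and grafted tops did not pass the test against them (0.36 ± 0.22, adjusted p = 0.17). At 48 to 72 h the difference was 1.36 ± 0.27 (1.1e-04), or 1.28 without 72 h (0.083). Both group IIIA members were also higher in late grafted tops. XTH32 (AT2G36870) had 36.4, 52.3 and 110 against 9.79, 12.8 and 18.0, a difference of 2.03 ± 0.26 (adjusted p = 4.4e-09). XTH31 (AT3G44990) had 308, 451 and 621 against 66.4, 188 and 367, which overlap, and its difference of 1.42 ± 0.20 (6.5e-08) was 0.70 without 120 h.

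A group of 6 members known mainly from roots, XTH12, XTH13, XTH14, XTH17, XTH21 and XTH26, is best described in separated tops. XTH12, XTH13, XTH14 and XTH26 appeared there from 72 h, and XTH21 and XTH17 stood highest there at 120 h. XTH14 (AT4G25820) was listed at 0 in both separated tops at 48 h, then had x values of 67.8 and 70.3 at 72 h, 32.4 and 50.7 at 120 h, 18.0 and 21.7 at 168 h and 0.405 and 0.486 at 240 h. In grafted tops it was 3.64 and 2.67 at 72 h and 4.69 and 6.64 at 120 h, and outside tops it never passed 1.54. From 72 to 168 h each separated top stood above every grafted top, and grafted minus separated top was -2.32 ± 0.13 at 120 to 240 h (adjusted p = 3.2e-20).

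XTH12 (AT5G57530) had 45.1 and 32.5 in separated tops at 72 h and 5.42 and 2.67 in grafted tops, and at 48 h it was still at 0.0809 and 0.486 in the former. Its separated top minus bottom difference of 2.82 ± 0.12 at 48 to 72 h therefore came from 72 h alone, being 0.34 without that time (adjusted p = 0.084) and 5.30 without 48 h, and grafted minus separated top went from -1.68 ± 0.12 to -0.34 (0.48). XTH13 (AT5G57540) had 11.9 and 9.79 in separated tops at 72 h and 0.0809 and 0.971 in grafted tops, and it was listed at 0 in all intact, separated bottom and grafted bottom libraries. XTH26 (AT4G28850) had 2.27 and 3.80 and XTH21 (AT2G18800) 5.42 and 5.18 in separated tops at 120 h. XTH17 (AT1G65310) had 11.9 and 23.2 at 120 h, and its late difference between separated tops and bottoms of 2.03 ± 0.28 (adjusted p = 5.8e-09) was 1.10 without 120 h and 3.19 without 240 h.

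Markers of root tissue were also high in separated tops from 72 h. Of 15 markers of root hairs, root cap, root meristem and endodermis, the number at an x of 1 or more in both separated tops was 6, 14, 15, 13 and 2 at 48, 72, 120, 168 and 240 h, and in grafted tops 3, 11, 12, 3 and 3. Intact plants and grafted bottoms had at most 3 at any time and separated bottoms 0. At 72 h the summed x of the 15 was 501 to 532 in separated tops, 284 to 318 in grafted tops, 353 to 392 in grafted bottoms and 33 to 60.4 in intact plants, and over all times it ran from 0 to 3.80 in separated bottoms. At 120 h it was 400 to 460 in separated tops, 111 to 126 in grafted tops, 224 to 277 in grafted bottoms and 289 to 356 in intact plants. Only 3 markers were then at an x of 1 or more in intact plants. The sum thus also rose in uncut stems, through few of the markers. The iron transporter IRT1 was the only marker at 0 in both separated tops at 72 h, and in grafted bottoms at that time COBL9, EXPA7, EXPA18, RHD6, LRX1, IRT1, PLT1 and PLT2 were at 0. Over the 41 groups the log level of the marker sum had r = 0.47, 0.43, 0.46, 0.14, 0.29 and 0.41 with XTH12, XTH13, XTH14, XTH17, XTH21 and XTH26, and r = 0.62, 0.62 and 0.48 with XTH9, XTH10 and XTH20. These r values are a description only. XTH17 had its highest levels, 28.4 and 41.4, in intact plants at 0 h, where 13 of the 15 markers were at 0. The part of root tissue in the levels of these members was not tested.

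**Figure D4:**
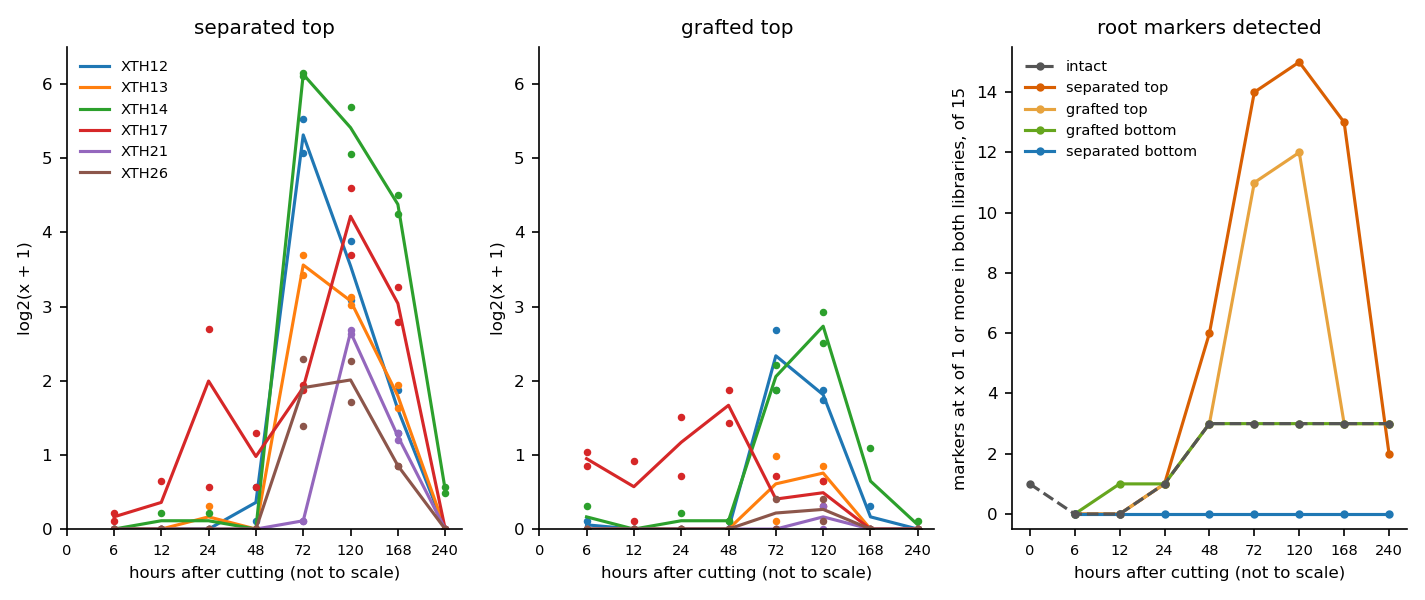
Levels of XTH12, XTH13, XTH14, XTH17, XTH21 and XTH26 in separated and grafted tops over time as log2(x + 1), with points for libraries and lines for group means, and the number of 15 root markers at an x of 1 or more in both libraries of each condition. Most members and the marker count peak in separated tops at 72 or 120 h and are low at 240 h, and the time axis is not to scale.

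Against intact hypocotyls of the same age, the members called higher outnumbered those called lower in every cut group and window. All of these comparisons share the intact libraries, so they are set side by side only. In separated tops 13 were higher and 4 lower at 6 to 24 h (32% and 30.8% of all genes), 17 and 6 at 48 to 72 h (40.2% and 27.1%) and 23 and 5 at 120 to 240 h (44.7% and 26.7%), with medians of 0.22, 0.80 and 1.29 against 0.00, 0.13 and 0.17 for all genes. In separated bottoms it was 10 and 7 (24.3% and 30.4%), 13 and 8 (27.8% and 28.5%) and 15 and 8 (32.4% and 31.2%), with medians of 0.04, 0.19 and 0.28 against -0.03, 0.00 and 0.00. XTH13, XTH21 and XTH26 reached an x of 1 in separated tops only, so the filter itself fixed their calls as higher there, and the share of members called in comparisons with separated tops is not read against the background.

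In grafted tops 13 members were higher and 5 lower at 6 to 24 h (31.7% and 30.8%), 15 and 6 at 48 to 72 h (31.5% and 26.8%) and 16 and 5 at 120 to 240 h (30.6% and 24.7%, or 17 and 2 members with libraries scaled to their totals). In grafted bottoms it was 14 and 6 (20.4% and 28.4%), 14 and 6 (20.3% and 26.5%, or 14 and 3) and 13 and 5 (25.4% and 28.2%, or 14 and 2, also with median-of-ratios scaling). The medians over members were 0.18, 0.28 and 0.49 in grafted tops and 0.44, 0.23 and 0.16 in grafted bottoms, and those over all genes lay between -0.07 and 0.04. In all bottoms the share of higher members was over its background in all 3 windows under the submitters' scaling, and so was that in grafted tops at 6 to 24 h. The later counts of higher members in grafted tops hold XTH12, XTH13 and XTH14. XTH13 passed the filter through separated tops only and was at 0 in all intact libraries, so it could not be called lower. These later shares are not read against the background. With library totals, 13, 16 and 17 of 29 members were higher in grafted tops, beside 8267, 11229 and 11234 of the 20766 genes. The early excess was then smaller, and the later shares are again not read. Late grafted tops then had 2807 genes lower. Grafted bottoms then had 5895 genes higher and 2865 lower at 48 to 72 h, and 7097 and 3302 at 120 to 240 h. With median-of-ratios scaling the last 2 were 5995 and 4404.

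XTH18 (AT4G30280) and XTH23 (AT4G25810, also XTR6) rose on both sides of the cut, joined or not. XTH23 had x values of 0.243, 0.769 and 1.62 in intact plants at 6 to 24 h, 51.6, 95.7 and 288 in grafted bottoms, 27.0, 52.0 and 135 in grafted tops, 33, 74.2 and 244 in separated bottoms and 35.3, 41.9 and 129 in separated tops. All 4 cut groups overlapped each other and none reached down to the intact plants. Against intact the early differences were 5.98 ± 0.28, 5.0 ± 0.28, 5.53 ± 0.28 and 5.01 ± 0.28 in that order (largest adjusted p = 1.7e-20).

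XTH18 was already high at 6 h, with 98.3 and 114 in grafted bottoms, 83.9 and 66.3 in grafted tops, 162 and 102 in separated bottoms and 114 and 116 in separated tops, and intact plants had at most 2.18 from 6 to 24 h. The differences from intact at 6 to 24 h were 4.95 ± 0.38, 4.31 ± 0.38, 4.85 ± 0.38 and 4.60 ± 0.38 in that order (largest adjusted p = 9.3e-14). Intact plants at 0 h had 5.42 and 28.6 for XTH18, 10.4 and 40.6 for XTH23 and 3.08 and 29.4 for XTH19, above their values of 6 to 24 h and overlapping the lowest cut libraries. XTH18 and XTH23 were still above intact plants of the same age at 120 to 240 h in each cut group, XTH18 by 3.01 to 5.07 and XTH23 by 2.82 to 5.49. Over the 41 groups the profiles of these genes correlated at r = 0.91 on the log scale, a description only, since groups share times and treatments.

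At 48 to 72 h both were higher in grafted than in separated bottoms, XTH23 with 175, 157, 120 and 114 against 99.4, 97.2, 64.5 and 20.8, and XTH18 with 69.4, 44.4, 62.0 and 68.1 against 38.8, 55.6, 8.09 and 3.16. For XTH23 the groups did not overlap and for XTH18 they did. The differences, 1.19 ± 0.34 (adjusted p = 0.0023) and 1.84 ± 0.47 (6.8e-04), rested on 72 h and were 0.75 (0.22) and 0.25 (0.82) without it, and that of XTH23 was 0.80 (0.057) without replicate 2 of the separated bottoms at 72 h. In the late window XTH23 was lower in grafted bottoms, with 32.7, 63.1 and 79.6 against 87.3, 133 and 215, a difference of -1.30 ± 0.28 (adjusted p = 5.7e-05) that was -0.86 without 168 h and -0.75 with libraries scaled to their totals.

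XTH19 and XTH22 were also above intact plants of the same age in several cut groups. XTH19 was above intact plants by 6.02 ± 0.35 in separated tops, 5.55 ± 0.35 in grafted tops and 5.58 ± 0.35 in grafted bottoms at 6 to 24 h (largest adjusted p = 9.7e-19). In separated bottoms its 3.52 ± 0.35 was 1.94 without 24 h. XTH22 had 20.6 as the median x of intact plants at 6 to 24 h, with 12.5 and 63.0 as lowest and highest, and 143, 246 and 452 in grafted bottoms. Grafted bottom minus intact was 3.20 ± 0.27, 3.23 ± 0.33 and 1.94 ± 0.27 in the 3 windows, and separated bottom minus intact 2.44 ± 0.27, 3.48 ± 0.33 and 3.60 ± 0.27 (largest adjusted p = 4.7e-08). In tops XTH22 differed from intact plants less, by 1.68 ± 0.27, 0.80 ± 0.33 and 1.12 ± 0.27 in separated tops and by 1.54 ± 0.27, 0.20 ± 0.33 (adjusted p = 0.64, not called) and 0.83 ± 0.27 in grafted tops. The 0.80 was 0.32 without 72 h (0.62), the 1.12 was 0.70 without 240 h (0.059) and the 0.83 was 0.48 without 240 h (0.24). The intact plants at 0 h stood at 355 and 822, above most of the cut libraries of 6 to 24 h.

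**Figure D5:**
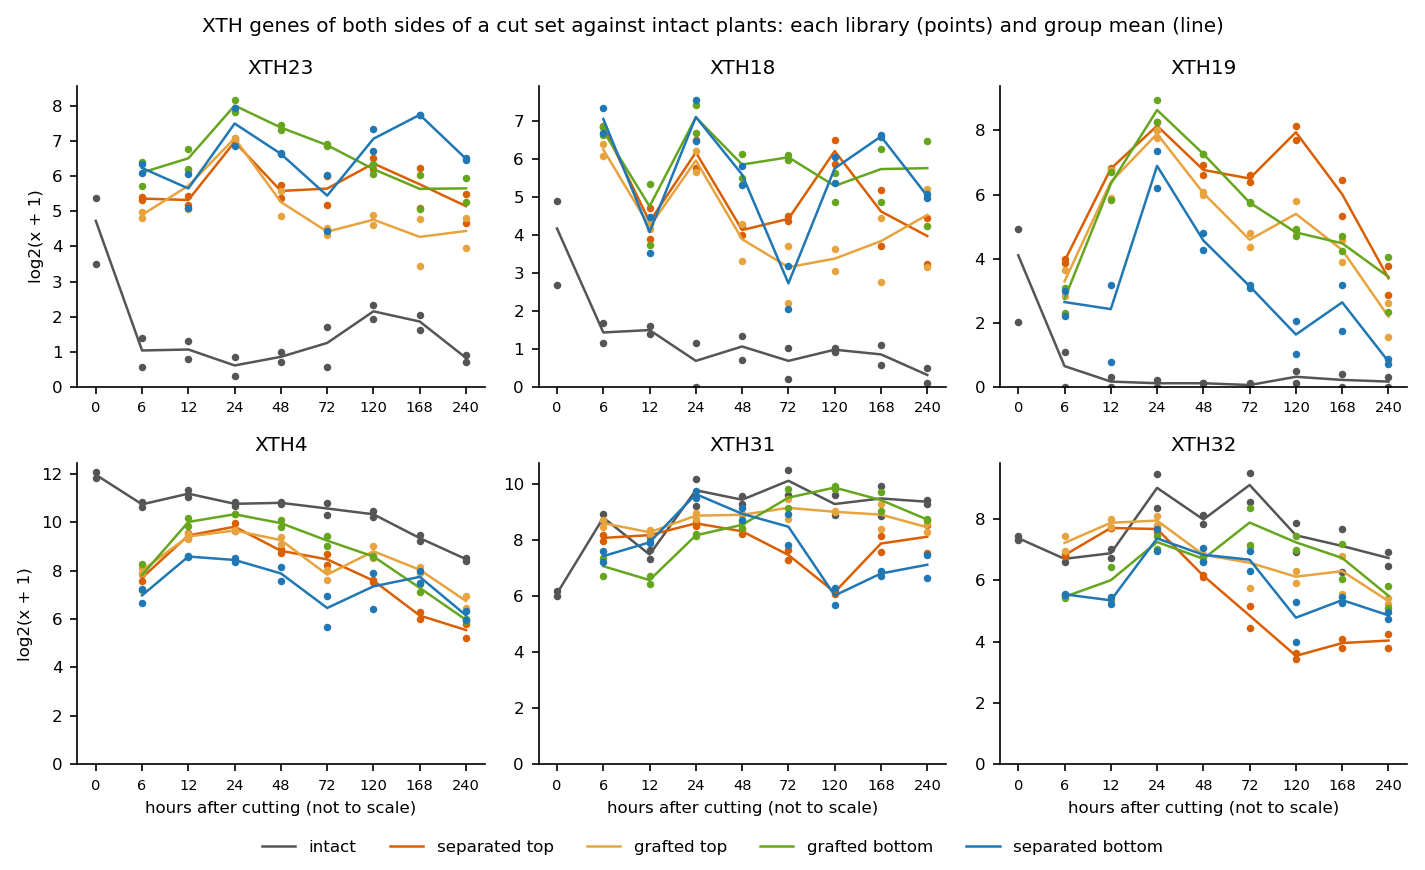
Levels of XTH23, XTH18, XTH19, XTH4, XTH31 and XTH32 over time in the 5 conditions, as log2(x + 1), with points for libraries and lines for group means. XTH23, XTH18 and XTH19 are higher in all cut groups than in intact plants at 24 h, XTH4 is lower, and XTH31 and XTH32 are lowest in separated tops and bottoms at 120 to 240 h. The time axis is not to scale.

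The most abundant member of the intact stem fell. XTH4 (AT2G06850) had x values of 1563, 1847 and 2543 in intact plants at 6 to 24 h, against 144, 1030 and 1283 in grafted bottoms, 240, 679 and 810 in grafted tops, 98.9, 346 and 390 in separated bottoms and 187, 699 and 1001 in separated tops. No cut library reached the lowest intact one. The differences from intact were -1.54 ± 0.19 in grafted bottoms, -1.86 ± 0.19 in grafted tops, -2.90 ± 0.19 in separated bottoms and -1.90 ± 0.19 in separated tops (largest adjusted p = 1.4e-09), the first being -0.80 without 6 h.

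XTH4 was lost most from bottoms left apart at 48 and 72 h, with 187, 282, 124 and 49.9, while joined bottoms kept 897, 1093, 685 and 521. That difference was 2.51 ± 0.23 (adjusted p = 2.6e-13), with no overlap. In the same window the contrast between top and bottom changed with grafting by -2.60 ± 0.32 (2.3e-09), or -1.67 without 72 h. The separated top minus bottom difference of -0.59 ± 0.19 at 120 to 240 h was called (adjusted p = 0.0036), but was -0.10 without 168 h (0.7), -0.34 without replicate 1 of the separated bottoms at 120 h (0.074) and 0.10 with libraries scaled to their totals (0.6).

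XTH31 and XTH32 were lower than intact plants in both unjoined parts in the late window. XTH31 had 458, 659 and 972 in intact plants, 66.4, 188 and 367 in separated tops, 50.2, 102 and 177 in separated bottoms, and 417, 687 and 970 in grafted bottoms, so that joined bottoms overlapped intact plants and separated ones did not. Separated top minus intact was -1.99 ± 0.20 (adjusted p = 3.0e-12), separated bottom minus intact -2.71 ± 0.20 (1.8e-16), and grafted minus separated bottom 2.71 ± 0.20 (1.2e-16). Grafted tops, with 308, 451 and 621, overlapped intact plants and differed from them by -0.56 ± 0.20 (0.015), which was -0.24 with libraries scaled to their totals (0.3) and -0.39 without 240 h (0.19). At 6 to 24 h the bottoms had the opposite order. Grafted bottoms then had 85.6, 133 and 293, overlapping the 148, 241 and 866 of separated bottoms but lower by -1.07 ± 0.20 (3.5e-05).

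XTH32 in the late window had 75.4, 121 and 232 in intact plants, 33.5, 96.1 and 172 in grafted bottoms, 36.4, 52.3 and 110 in grafted tops, 14.9, 33.5 and 42.9 in separated bottoms and 9.79, 12.8 and 18.0 in separated tops. Separated tops were the lowest, with no overlap with intact plants. The differences from intact were -3.19 ± 0.26 in separated tops, -2.07 ± 0.26 in separated bottoms and -1.16 ± 0.26 in grafted tops (largest adjusted p = 1.4e-04), while the -0.59 ± 0.26 in grafted bottoms had an adjusted p of 0.048 and was -0.26 without 240 h (0.53).

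XTH7 (AT4G37800) and XTH8 (AT1G11545), both of group I, were higher in tops than in bottoms at 6 to 24 h. In separated plants both were called so in all 3 windows. In grafts XTH8 was not called from 48 h on, and XTH7 was not called at 120 to 240 h. Against intact plants in that late window XTH7 was called lower in both kinds of top. XTH8 was then called lower in grafted and higher in separated tops. XTH7 had 325, 871 and 1334 in intact plants at 6 to 24 h, 291, 563 and 1076 in separated tops and 34.8, 60.1 and 626 in separated bottoms, and grafted bottoms overlapped separated ones with 30.8, 148 and 361. Top minus bottom was 2.35 ± 0.21 in separated and 2.26 ± 0.21 in grafted plants (adjusted p = 3.6e-14 and 3.3e-13). Separated bottom minus intact was -2.65 ± 0.21, or -1.68 without 6 h. XTH8 had 16.3, 31.0 and 50.1 in intact plants and 6.88, 8.50 and 11.0 in separated bottoms at 6 to 24 h, a difference of -1.68 ± 0.19 (adjusted p = 1.7e-10), and its highest levels were 150 and 207 in the intact plants at 0 h.

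The remaining tested members were smaller or more local. XTH28 (AT1G14720) had 78.4, 112 and 141 in separated tops at 6 to 24 h, above the 45.6, 49.0 and 60.9 of separated bottoms without overlap. XTH11 (AT3G48580) had its highest early levels in separated bottoms, with 1.62, 7.93 and 10.1 against 0.0809, 0.647 and 1.38 in intact plants. XTH5 (AT5G13870) reached 27.5 and 17.8 in separated tops at 120 h and otherwise stayed at or under 11.8, and XTH25 (AT5G57550) never passed 1.38. These levels are near or at the floor for XTH25 and XTH11 in many libraries, where 3 reads stand for an x of up to 0.519.

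Uncut stems of different age and hour of collection also differed, in part through the 2 libraries at 0 h. Intact hypocotyls at 120 to 240 h had 4 members higher and 13 lower than those at 0, 24 and 48 h (17.7% and 20.3% of all genes), with a median of -0.36 against -0.01. Without 0 h the count was 14 in all, with no count over all genes set beside it. XTH6 differed by -2.95 ± 0.22 (adjusted p = 1.2e-15) and XTH8 by -2.90 ± 0.19 (2.7e-17), while XTH28 differed by 0.89 ± 0.11 (3.8e-09). XTH16 and XTH17, with 173 and 183 and with 28.4 and 41.4 at 0 h, owed most of their differences of -2.20 ± 0.24 and -2.12 ± 0.28 to that time, and were at -0.81 (0.022) and -0.66 (0.11) without it. XTH19, called lower, was at 0.11 without 0 h and XTH31, called higher, at -0.24, and neither was then called. XTH9, XTH22 and XTH23 were not called with 0 h, and were at 0.72, 0.91 and 0.88 without it.

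Intact plants collected at 6 and 12 h had 2 members higher and 10 lower than those collected at 0 and 24 h (16.5% and 15.9% of all genes, or 4 and 9 members with libraries scaled to their totals), with a median of -0.03 against 0.00. With library totals 5826 of the 20766 genes were higher and 2278 lower. XTH6 was lower by -2.44 ± 0.27 (adjusted p = 3.5e-10), or -1.39 without 12 h, and XTH28 higher by 0.93 ± 0.13 (2.4e-07). XTH17 was lower by -2.49 ± 0.34 (6.3e-08) with 0 h and by -0.25 (0.74) without it. Of the 10 called lower, XTH9, XTH15, XTH19, XTH22 and XTH23 changed sign when 0 h was left out, to 0.49, 0.13, 0.24, 0.49 and 0.43, none of them called. The count without 0 h was 8 in all, with no count over all genes set beside it.

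The genes that make and trim xyloglucan were read beside the family from a list of 20, all of them tested. In separated tops against separated bottoms 13, 12 and 13 of the 20 were higher in the 3 windows (40.4%, 47.2% and 49.4% of all genes) and 3, 3 and 4 lower (31.6%, 29.4% and 30.2%). In grafted against separated bottoms 9, 13 and 10 were higher (17.5%, 30% and 35.6%) and 2, 4 and 6 lower (17.1%, 30.5% and 34.6%). The backbone synthases CSLC4 and CSLC5 were higher in grafted than in separated bottoms by 2.52 ± 0.26 and 2.27 ± 0.16 at 48 to 72 h (adjusted p = 1.2e-11 and 6.8e-17), the xylosyltransferase XXT5 by 2.02 ± 0.16 (2.5e-15) and the galactosyltransferase MUR3 by 1.70 ± 0.18 (4.1e-11). In the same comparison the trimming enzymes XYL1, an alpha-xylosidase, and BGAL10, a beta-galactosidase, differed by -1.37 ± 0.19 (3.0e-08) and -2.15 ± 0.36 (9.9e-07). In grafted tops against bottoms 13, 2 and 0 of the 20 were higher (37.8%, 27.6% and 12.4%) and 1, 3 and 3 lower (27%, 19.5% and 11.2%). The change of the contrast with grafting was higher for 2, 3 and 3 of them (10.4%, 23.1% and 28%) and lower for 8, 12 and 12 (11.6%, 32.3% and 41.6%).

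Likeness over the 41 groups of log2 mean levels paired several members. XTH13 was most like XTH26 (r = 0.99), XTH12 most like XTH13 (0.95), XTH24 most like XTH27 (0.86), XTH9 most like XTH20 (0.84) and XTH22 most like XTH27 (0.80). XTH20 was least like XTH6 (-0.59), and XTH24 least like XTH7 (-0.70). XTH22 and XTH23, with 82.4% of their coding bases shared, had r = 0.71, while the most alike profile was that of XTH27 for XTH22 and that of XTH18 for XTH23. XTH18 and XTH19, adjacent genes with 89.2% of coding bases shared, were both most like XTH23, with 0.91 and 0.73, and had r = 0.41 and -0.10 with their neighbour XTH24.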

How the data were processed

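RNA-seq of 82 Arabidopsis thaliana libraries in 41 groups of 2 was analysed from a pair of tables of the whole series. Both hold values that the authors had normalised and rounded to whole numbers before they were deposited, 1 by library and the other by library and length. They are scores on the authors' own scale, not raw counts, and the low values repeat in steps, from which the depth of 69 of the 82 libraries was estimated. Per the submitters' processing notes, cutadapt 1.8.1, Bowtie2 and TAIR10 were used. Which counter, annotation and scaling were applied, and whether strand was used, was not given in the sources used here. The upper quartile of a library's values was 373 to 398 in all 82 libraries, a far narrower range than that of their sums, 10.05 to 19.7 M.

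The library-normalised values were divided by 1 constant (x) and put on the log2(x + 1) scale. R 4.3.3 and limma 3.58.1, a model for continuous values, were used. The model held 41 group means, 82 libraries and 41 residual degrees of freedom, with a trend in the prior variance and Benjamini-Hochberg adjustment over the 20766 genes with an x of 1 or more in at least 2 libraries. The 29 comparisons are equal-weight averages over the times of a window. The code was tested on simulated data. Other steps used Python 3.11.15, NumPy 2.4.6, pandas 2.3.3, Matplotlib 3.10.9 and Biopython 1.88. Depth limits precision: 3 reads stand for an x of 0.122 to 0.519, which covers counting error only. No column belonged to another series (0 such columns).

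The members, the root marker list and the xyloglucan list were chosen with earlier results of these data known. A panel of 10 members (XTH4, XTH9, XTH15, XTH17, XTH18, XTH19, XTH20, XTH22, XTH23 and XTH24) was followed throughout, and each comparison also named up to 4 members in each direction by size of difference, among those called whose mean x reached 5 and whose sign was shared by all times. Samples with the same replicate number at a time deviated together at every time in grafted tops and bottoms (r over 0.1 at 8 of 8 times, 0.148 to 0.506). The other pairs of conditions passed 0.1 at 5 or 6 of 8 times. The model behind the reported values had no replicate block, so it did not use this pairing. Replicate blocks were fitted as alternatives only, either shared by all conditions of a time or separate for grafted and separated parts. Alternatives were pseudocounts of 0.1 and 5, other filters, 3 other scalings, the length-normalised table, no trend, only the groups compared, replicate blocks, and leaving out each library or time. The upstream sequence of 1 member is not reported here.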

Additional observations from a re-analysis of the deposited data

Results flagged for a closer look

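The difference between the grafted and the separated top minus bottom contrast was itself tested, by an interaction contrast in limma adjusted over all 20766 genes, and 11, 19 and 20 members passed in the 3 windows. The 30 values given are those of the panel of 10 and of the members named for that contrast by size. In each, a negative value means that the top stood lower relative to the bottom in grafts than in separated plants.

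At 6 to 24 h the values, on the log2(x + 1) scale, were -1.32 for XTH4 (adjusted p = 1.5e-04), 0.86 for XTH6 (0.037), -2.68 for XTH9 (9.5e-10), -2.54 for XTH19 (1.1e-04), -3.51 for XTH20 (4.8e-12), 1.00 for XTH24 (0.031), -1.92 for XTH30 (8.7e-08) and 1.37 for XTH31 (3.0e-04). Without 24 h XTH6 was at 0.40 (0.62) and XTH24 at 0.84 (0.23), and without 12 h XTH19 was at -1.42 (0.12).

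At 48 to 72 h they were -2.60 for XTH4, 0.70 for XTH5 (adjusted p = 0.008), 3.33 for XTH6, -4.25 for XTH9, -4.48 for XTH15, -2.73 for XTH18 (4.8e-04), -3.99 for XTH19, -4.69 for XTH20, -1.95 for XTH23 (6.2e-04), 1.80 for XTH24 (3.1e-04) and 2.0 for XTH27. Without 72 h XTH4 was at -1.67, XTH5 at 0.32 (0.52), XTH18 at -0.58 (0.72) and XTH23 at -1.09 (0.25), and without 48 h XTH24 was at 1.27 (0.069).

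At 120 to 240 h they were 1.16 for XTH4 (adjusted p = 1.3e-04), 5.77 for XTH6, -3.64 for XTH9, -3.09 for XTH15, -1.96 for XTH17 (1.9e-05), -4.39 for XTH19, -5.85 for XTH20, 1.36 for XTH22 (0.0018), 2.77 for XTH24, 2.64 for XTH27 and 2.68 for XTH33 (3.0e-08). XTH4 was at 0.57 without 168 h (0.11), XTH15 at -2.03 and XTH17 at -1.20 without 120 h, and XTH17 at -3.08 without 240 h. XTH22 was at 0.78 (0.057) with libraries scaled to their totals and 0.72 (0.084) under quantile normalisation, where XTH24 was at 1.40.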

How the results depend on the processing

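Of the 29 counts of members called, 3 moved by over 1.5 times, each when 1 time was left out: the late contrast between grafted top and bottom from 13 to 4 without 120 h, and, without 72 h, grafted against separated tops at 48 to 72 h from 9 to 0 and the change of the contrast with grafting in that window from 19 to 9. The cause was not tested. The other alternatives kept each count within 1.5 times. With a replicate block, separated tops against bottoms called 17, 22 and 27 members and grafted against separated tops 13 at 48 to 72 h, where 9 were called without it. No named value lost its call under the block.

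Leaving out 1 library at a time gave these ranges of members called, window by window: separated top minus bottom 15 to 18, 21 to 22 and 25 to 27; grafted top minus bottom 16 to 18, 15 to 17 and 9 to 13; grafted minus separated top 0 to 0, 8 to 10 and 20 to 23; grafted minus separated bottom 13 to 16, 17 to 21 and 20 to 22. Against intact plants the ranges were 17 to 18, 21 to 24 and 27 to 28 in separated tops, 16 to 19, 21 to 23 and 21 to 24 in separated bottoms, 16 to 18, 18 to 22 and 17 to 21 in grafted tops and 18 to 22, 18 to 19 and 15 to 19 in grafted bottoms. They were 9 to 13, 19 to 20 and 20 to 21 for the change of the contrast, 15 to 17 for intact age and 10 to 14 for intact 6 to 12 h.

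Directions reversed in 12 cases. XTH4 in late separated top minus bottom was 0.10 with libraries scaled to their totals. XTH20 in late grafted minus separated top was -0.27, not called, and 0.83 (adjusted p = 0.011) without 240 h. In intact plants without 0 h, late minus early was 0.72 for XTH9, 0.11 for XTH19, 0.91 for XTH22, 0.88 for XTH23 and -0.24 for XTH31, and 6 to 12 h minus the other hours was 0.49 for XTH9, 0.13 for XTH15, 0.24 for XTH19, 0.49 for XTH22 and 0.43 for XTH23. Of 374 named values, 15 lost their call with libraries scaled to their totals and 15 under quantile normalisation.

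Scaling moved the median of all genes by -0.46 to 0.59 with library totals and by -0.23 to 0.21 with quantile normalisation. Counts over all genes moved by over 1.5 times in grafted minus separated tops at 6 to 24 h, from 72 to 32 with a pseudocount of 0.1, 43 with only the groups compared, 46 without 12 h and 27 without 24 h. When 1 time was left out they also moved in grafted top minus bottom at 48 to 72 h (9783 to 5490 without 48 h) and 120 to 240 h (4904 to 2397 and 2934 without 120 and 168 h), grafted minus separated top at 48 to 72 h (4684 to 250 without 72 h) and 120 to 240 h (10230 to 5499 without 120 h), grafted minus separated bottom at 6 to 24 h (7189 to 4660 without 24 h), and the change of the contrast at 6 to 24 h (4572 to 2681 and 2189 without 12 and 24 h) and 48 to 72 h (11505 to 5971 without 72 h). Depth limits XTH1, XTH2, XTH3, XTH25 and XTH29, at or near the floor in most libraries.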
